A study of Mus musculus with 15 samples.

Results

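The genes of the Fc gamma receptors of the mouse and of the chain through which they signal were followed in whole blood: Fcgr1, Fcgr3 and Fcgr4, which encode activating receptors, Fcer1g, which encodes the common gamma chain, Fcgr2b, which encodes the inhibitory receptor, and Fcgrt, which encodes the heavy chain of the neonatal Fc receptor. These 6 genes were taken by symbol out of 55416 gene identifiers that were counted, and all 6 passed the filter on low counts in each comparison. Blood was drawn from 15 C57BL/6 mice, and 1 library was sequenced per mouse. In 5 mice no treatment and no surgery was given (untreated), 5 received 2 doses of αCTLA-4 (an antibody that blocks the T cell checkpoint receptor CTLA-4) and an early neck dissection (ND), and 5 received 2 doses of αCTLA-4 and a late ND. ND is the surgical removal of the lymph nodes of the neck, into which a tumor of the tongue drains.

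The mice were females of 4 to 6 weeks, and tumor cells of 4MOSC1, an oral squamous cell carcinoma line of this strain, had been injected into the tongue and had grown for 10 days. The protocol in the labels of the untreated mice names the same transplantation, so tumors are taken to be shared by all groups only as far as that label goes. No group was labelled as αCTLA-4 without ND, so the antibody and the surgery cannot be told apart between early and untreated mice. Early ND fell on day 6 and late ND on day 11. The bleed is placed on day 10 in a legend and after the delayed operation in the running text, so the late group may have been bled before or after its surgery, and whether late against untreated mice compares the antibody alone or the antibody with surgery is not settled. Below, "early" and "late" name the 2 treated groups as they were labelled.

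Fc gamma receptors bind the constant part of IgG and link antibodies to phagocytes and lymphocytes. The activating receptors signal through the gamma chain, whose immunoreceptor tyrosine-based activation motif (ITAM) is phosphorylated by Src family kinases and then recruits the kinase Syk. The inhibitory receptor carries an immunoreceptor tyrosine-based inhibition motif (ITIM), which recruits the phosphatase SHIP-1 and dampens signals of the activating receptors and of the B cell receptor. Mouse neutrophils express mainly Fcgr3 and Fcgr4, monocytes express several of the receptors together, and B cells express Fcgr2b as their only classical Fc gamma receptor. The neonatal receptor works inside cells, where it returns IgG to the circulation instead of letting it be degraded. In mouse models, antibodies to CTLA-4 can deplete regulatory T cells of the tumor through activating Fc gamma receptors.

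The genes lie in 3 places in GRCm39. Fcgr2b (ENSMUSG00000026656.16, chr1:170786186-170804177, minus strand), Fcgr4 (ENSMUSG00000059089.5, chr1:170846466-170857330, plus strand) and Fcgr3 (ENSMUSG00000059498.14, chr1:170878738-170893549, minus strand) share a stretch of 107.4 kb, and Fcer1g (ENSMUSG00000058715.12, chr1:171057141-171062219, minus strand) starts 163.6 kb beyond it. Fcgr1 (ENSMUSG00000015947.11, chr3:96190225-96201338, minus strand) and Fcgrt (ENSMUSG00000003420.9, chr7:44742412-44756819, minus strand) stand elsewhere. Fcgr2b and Fcgr3 are near copies in part, and 2.11% of the stretches of 100 bases in the Fcgr3 transcripts also occur in other genes, against 5.75% for Fcgr2b and 0 for the other 4 genes. Of these, 44 stretches of Fcgr3 were shared with Fcgr2b and 37 with Gm70157. Fcgr2b shared more with genes other than Fcgr3, led by Gm38204 (158 stretches) and Cplx2 (127). The antisense gene Gm38204 covers 6.06% of the exon bases of Fcgr2b and held 0 to 8 counts per library, at most 2.6% of the Fcgr2b count, and reads of the overlap cannot be assigned to a strand because the strand setting was not stated.

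The coding sequences of the signaling motifs of the activating chain and of the inhibitory receptor are shown because the results below set these arms against each other. Both were read from the canonical transcripts in GRCm39, on the minus strand, with the tyrosine codons in capitals. The ITAM of Fcer1g spans codons 65 to 79 of 86 and 2 exons (chr1:171057458-171057641, the intron between them left out here), and the ITIM of Fcgr2b spans codons 270 to 275 of 293 in 1 exon (chr1:170788640-170788657). The loose letter pattern used to find the ITIM also matched codons 219 to 224 of Fcgr4, codons 41 to 46 of Fcer1g and stretches of Fcgr1 and Fcgrt, so a match to the pattern does not by itself tell the arms apart.
Fcer1g ITAM: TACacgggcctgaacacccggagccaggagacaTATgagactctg
Fcgr2b ITIM: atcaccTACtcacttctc

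The promoters of the activating receptors are shown because these 3 of the 6 genes hold a core motif of PU.1, the myeloid transcription factor. The windows come from RefSeq in GRCm38.p6, run from 250 bases before to 50 bases after a transcript start and are written in the direction of the gene, which is the minus strand for Fcgr1 and Fcgr3 and the plus strand for Fcgr4. All 6 genes had a window. Capitals mark GAGGAA on either strand (it reads TTCCTC here) and the pattern TTCNNNGAA, the letters of a gamma-activated site. GAGGAA was found in 28.3% of 32851 promoters of the same length and TTCNNNGAA in 8.3%, and neither was present in the windows of Fcgr2b, Fcer1g and Fcgrt. The shorter ETS core GGAAG, also looked for on either strand, was present in the windows of all 6 genes. Fcer1g held 4 matches, Fcgr1 and Fcgr2b 3 each and the others 1 each. GGAAG was found in 71.4% of the promoters. The 3 of 6 genes with GAGGAA were not tested against its share. A match is a description of these letters, and binding was not measured.
Fcgr1, chr3:96293920-96294219: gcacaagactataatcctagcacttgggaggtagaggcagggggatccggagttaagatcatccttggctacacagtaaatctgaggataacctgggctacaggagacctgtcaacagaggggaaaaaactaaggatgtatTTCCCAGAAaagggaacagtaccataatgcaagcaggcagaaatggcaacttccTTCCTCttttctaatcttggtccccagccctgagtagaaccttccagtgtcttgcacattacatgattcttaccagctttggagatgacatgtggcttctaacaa
Fcgr3, chr1:171059354-171059653: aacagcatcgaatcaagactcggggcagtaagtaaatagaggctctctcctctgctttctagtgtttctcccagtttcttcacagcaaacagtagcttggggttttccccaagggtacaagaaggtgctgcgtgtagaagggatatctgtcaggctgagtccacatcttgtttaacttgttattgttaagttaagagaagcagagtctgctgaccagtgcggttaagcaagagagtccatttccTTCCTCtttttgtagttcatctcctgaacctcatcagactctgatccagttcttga
Fcgr4, chr1:171018676-171018975: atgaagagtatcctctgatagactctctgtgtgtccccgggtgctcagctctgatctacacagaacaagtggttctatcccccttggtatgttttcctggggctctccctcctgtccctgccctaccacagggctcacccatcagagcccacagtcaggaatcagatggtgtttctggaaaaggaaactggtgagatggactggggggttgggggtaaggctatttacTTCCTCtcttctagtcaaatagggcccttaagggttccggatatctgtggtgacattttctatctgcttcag

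Between 5527108 and 13924361 counts per library fell on genes, with 7849602 to 13924361 in the late, 5527108 to 7182346 in the early and 5862888 to 10796099 in the untreated group. Each late library was deeper than each early one, and the late range overlapped with the untreated one through untreated 2. Hemoglobin genes took 14.9% to 29.3% of the counts in the late, 38.3% to 64.1% in the early and 31.6% to 61.7% in the untreated libraries, so the late group did not overlap with either of the others in this share. The libraries untreated 2, late 2 and late 3 were poor in the 18S ribosomal RNA gene Rn18s-rs5, with 313 to 766 CPM (counts scaled to a common library total), against at least 13402 CPM in the other 12. Hemoglobin, neutrophil, monocyte, B cell, T cell and platelet markers were detected in all groups, as the blood label would have it, with Gp1bb of the platelet list at 0 in each library and Epx of the eosinophil list at 0 in the untreated libraries. Levels of the 6 genes are given as CPM scaled with the trimmed mean of M-values (TMM) over all 15 libraries, and adjusted p-values come from edgeR's quasi-likelihood fits, corrected by the Benjamini-Hochberg method over every gene in the fit, unless an exact permutation test is named.

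Per kb of exon, the gamma chain gene Fcer1g stood highest in 15 of 15 libraries. Its mean level was 116 ± 23.3 CPM per kb (SD, n = 5) in untreated, 101 ± 35.7 in early and 165 ± 33.4 in late mice. Fcgr3 followed, with 41.7 ± 8.6 CPM per kb in untreated mice, then Fcgr4 with 27.0 ± 10.5, Fcgr2b with 8.54 ± 1.7, Fcgr1 with 3.17 ± 1.44 and Fcgrt with 2.06 ± 0.54 (SD, n = 5 each). This whole order held in 11 of 15 libraries, both per kb of all exons and per kb of the canonical transcript. Per kb of exon, the neighbours Fcgr3 and Fcgr4 overlapped within 1 SD in each group, and so did Fcgr1 and Fcgrt in untreated and early mice. The step from Fcgr3 to Fcgr4 depended on the length used: per kb of the canonical transcript the means were 83.5 and 27.0 CPM in untreated, 58.6 and 25.8 in early and 108 and 34.6 in late mice. Fcgr3 stood next below Fcer1g in 14 of 15 libraries per kb of exon and in 15 of 15 per kb of the canonical transcript. Set against the summed level of the 3 activating receptors per kb of exon, Fcer1g was 1.28 to 2.12 times as high in the single libraries, and 1.03 to 1.57 times per kb of the canonical transcript. Transcripts of the chain thus exceeded those of its 3 partners in each library on either length, although other receptors use the chain too.

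Fcgr2b, the inhibitory receptor gene, was the only member to pass the test in any comparison. Its levels were 46.2, 50, 45.7, 66.9 and 41.1 CPM in untreated mice 1 to 5. In early mice they were 46.4, 51.8, 43.1, 55.6 and 74.6 CPM. In late mice they were 112, 77.1, 69.5, 94.4 and 67.4 CPM. Each late library lay above each untreated library, narrowly so at late 5 against untreated 4, while the early library 5 reached into the late range and the early and untreated groups overlapped. Between late and untreated mice Fcgr2b rose by 0.75 on the log2 scale (SE 0.17, 1.68-fold, adjusted p = 0.0403, edgeR, higher in 5 of 5 late libraries than in any untreated library). Of all 13547 genes tested in that comparison, 3% were called and 0.989% were called higher, and 2.5% were higher without overlap of the groups. Between late and early mice the log2 fold change was 0.66 (SE 0.18) but missed the threshold (adjusted p = 0.0547, edgeR), and 3 of 5 late libraries lay above all early ones. Between early and untreated mice it was 0.11 (SE 0.17, adjusted p = 0.962).

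The Fcgr2b call between late and untreated mice depended on the setting. It was kept with DESeq2 (adjusted p = 0.00336), without a filter on low counts (0.0117), with at least 10 counts in every library (0.0299), in 1 fit of all 15 libraries (0.0424), with DESeq2 size factors in edgeR (0.0426) and when scaled by library totals alone (0.00211, log2 fold change 1.63). It was lost when the 3 libraries poor in 18S RNA were left out, although the log2 fold change was then 0.85 (adjusted p = 0.1303), and when the hemoglobin share entered the fit as a covariate (0.93, adjusted p = 0.792). It was also lost on leaving out any 1 of the 10 libraries except untreated 4, with log2 fold changes of 0.62 to 0.88 and adjusted p-values of 0.0396 to 0.110. In several of these edgeR fits no gene passed. The smallest adjusted p of any gene was 0.0519 to 0.0651 without late 1, late 4, late 5 or untreated 3. It was 0.104 without the libraries poor in 18S RNA and 0.165 with the covariate. The loss in those fits is therefore not particular to Fcgr2b. Without late 2, late 3, untreated 1, untreated 2 or untreated 5, however, other genes passed while Fcgr2b did not. The smallest adjusted p in these fits was 0.0032 to 0.0447 (edgeR). The hemoglobin share does not overlap between the late and untreated libraries, so its part and that of the group cannot be told apart. In blood as a bulk tissue, more transcripts of a gene can come from more cells of a type or from more RNA per cell, and for all 6 genes these cannot be told apart.

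**Figure D1:**
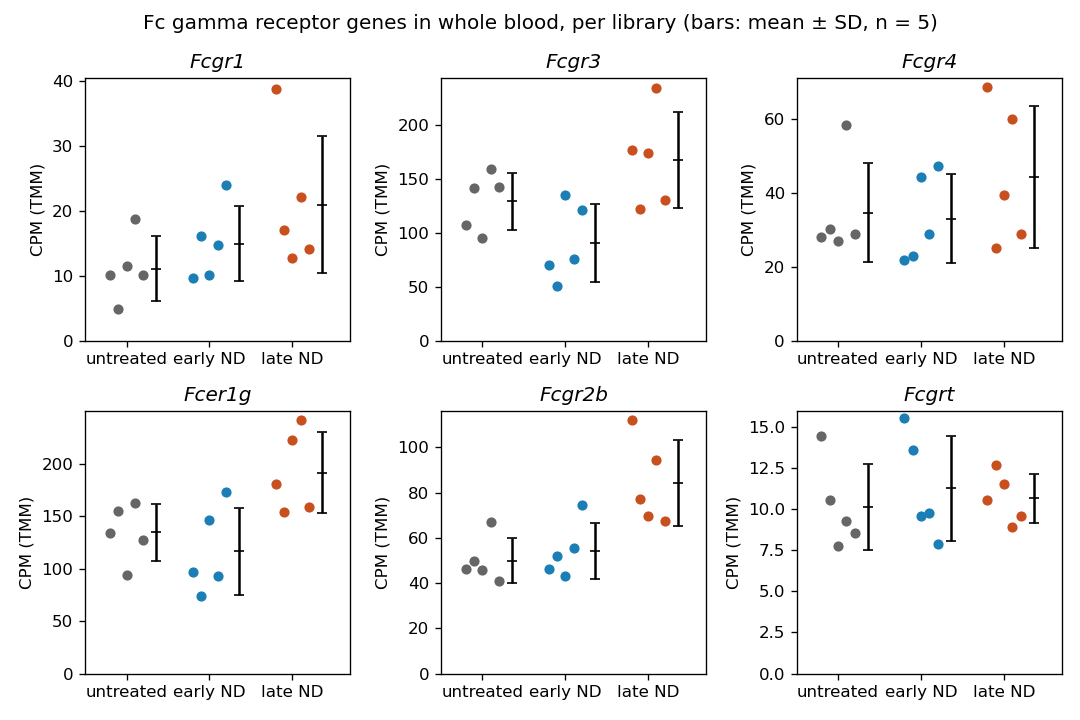
Levels of the 6 genes in each library, in TMM-scaled CPM on axes that start at 0, for untreated, early ND and late ND mice. Points are single libraries in the order of their replicate numbers, and bars give the mean ± SD of 5 libraries. For Fcgr2b the 5 late libraries, at 67.4 to 112 CPM, sit above the 5 untreated ones at 41.1 to 66.9, and in the other 5 panels all groups overlap.

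Fcgr1 encodes the high-affinity receptor for IgG and is known to be induced by interferon-gamma in monocytes. It had few counts, 25 to 427 per library, and the widest range of the 6 genes, with the highest library at 8.07 times the lowest. Its levels were 10.0, 4.80, 11.5, 18.8 and 10.2 CPM in untreated mice. In early mice they were 9.68, 16.1, 10.1, 14.8 and 24.0 CPM. In late mice they were 38.8, 17.0, 12.8, 22.2 and 14.1 CPM. The groups overlapped, and late 1 was far above the other late libraries. The log2 fold change was 0.94 between late and untreated mice (SE 0.37, adjusted p = 0.208), 0.52 between late and early mice (SE 0.33, adjusted p = 0.365) and 0.44 between early and untreated mice (adjusted p = 0.940), so none of these passed. Between late and early mice it was 0.16 without late 1, 0.77 without early 5 and 1.82 with hemoglobin as a covariate, and between late and untreated mice 0.60 without late 1 and 2.06 with that covariate, and none of these 5 values passed.

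Fcgr3, the low-affinity activating receptor of neutrophils, monocytes and NK cells, had levels of 107, 141, 95.5, 159 and 142 CPM in untreated mice. In early mice they were 70.4, 50.4, 135, 75.8 and 121 CPM. In late mice they were 177, 122, 174, 234 and 131 CPM. The early libraries fell into 3 that lay below every untreated library and 2, early 3 and early 5, that lay inside the untreated range and near the lowest late libraries. The fold change between late and early mice was the largest among the members in that comparison, 0.90 on the log2 scale (SE 0.27), yet it did not pass (adjusted p = 0.0677, edgeR). Without early 3 it was 1.10 and passed (adjusted p = 0.0218). Between late and untreated mice the log2 fold change was 0.37 (SE 0.19, adjusted p = 0.361), and between early and untreated mice it was -0.51 (SE 0.26, adjusted p = 0.938).

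Fcgr4 encodes the activating receptor that binds IgG2a and IgG2b in the mouse. Its levels were 28.1, 30.3, 27.0, 58.5 and 28.9 CPM in untreated mice, 4 of which lay close together while untreated 4 stood apart. In early mice they were 21.8, 22.9, 44.3, 28.9 and 47.4 CPM. In late mice they were 68.6, 24.9, 39.3, 59.9 and 28.8 CPM. The groups overlapped in every comparison, and the log2 fold change was 0.43 between late and early mice (SE 0.31, adjusted p = 0.433), 0.34 between late and untreated mice (SE 0.30, adjusted p = 0.629) and -0.075 between early and untreated mice (adjusted p = 0.988). The last of these turned to 0.20 without untreated 4. Between late and early mice it was 0.21 without late 1, 0.29 without late 4, 0.66 without the libraries poor in 18S RNA and 1.09 with hemoglobin as a covariate, and none of these passed.

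Fcer1g, the signaling chain, followed Fcgr3 (Pearson r of 0.93 over 15 libraries) more closely than Fcgr2b (0.65). Its levels were 134, 155, 93.8, 163 and 127 CPM in untreated mice. In early mice they were 96.8, 73.7, 147, 93.1 and 173 CPM. In late mice they were 181, 154, 222, 242 and 159 CPM. The late libraries lay at the top of the range, but early 5 exceeded 2 of them and the highest untreated library, at 163 CPM, exceeded the same 2. The log2 fold change was 0.73 between late and early mice (SE 0.23, adjusted p = 0.0832), 0.51 between late and untreated mice (SE 0.17, adjusted p = 0.157) and -0.21 between early and untreated mice (adjusted p = 0.947).

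Fcgrt, whose product pairs with beta-2 microglobulin, was the lowest of the 6 genes per kb of exon in 12 of 15 libraries and had the narrowest range, with 27 to 317 counts per library and the highest library at 2.0 times the lowest. Its levels were 14.5, 10.6, 7.77, 9.30 and 8.55 CPM in untreated mice. In early mice they were 15.5, 13.6, 9.58, 9.74 and 7.86 CPM. In late mice they were 10.5, 12.7, 11.5, 8.94 and 9.60 CPM. No group stood apart, and the log2 fold changes were -0.063 between late and early mice (SE 0.19, adjusted p = 0.880), 0.10 between late and untreated mice (SE 0.18, adjusted p = 0.845) and 0.18 between early and untreated mice (adjusted p = 0.949).

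Read by comparison, 0 of 6 members passed between late and early mice, where 4.98% of 13315 genes were called and 2.5% called higher. At an unadjusted p under 0.05, 3 of the 6 were higher (Fcgr2b, Fcgr3 and Fcer1g), against 14.4% of all genes. These calls differed by tool and filter: with DESeq2 the same 3 genes passed, with adjusted p-values of 0.0222, 0.0222 and 0.0385, and without a filter on low counts edgeR called them too, with 0.0161, 0.0170 and 0.0291. Calls rose for genes at large in both settings. DESeq2 called 769 of 13315 genes higher and 670 lower, and the fit without a filter 886 of 28650 higher and 396 lower. The main fit called 333 higher and 330 lower. Between late and untreated mice 1 of 6 members passed and 3 of 6 were higher at an unadjusted p under 0.05 (Fcgr1, Fcgr2b and Fcer1g), against 8.69% of all genes. Between early and untreated mice 0 of 6 members passed, as did 0 of all 12151 genes by edgeR and by DESeq2, with 256 genes higher and 283 lower at an unadjusted p under 0.05 by edgeR. Each group enters 2 of the 3 comparisons, so their fold changes are not independent of each other.

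**Figure D2:**
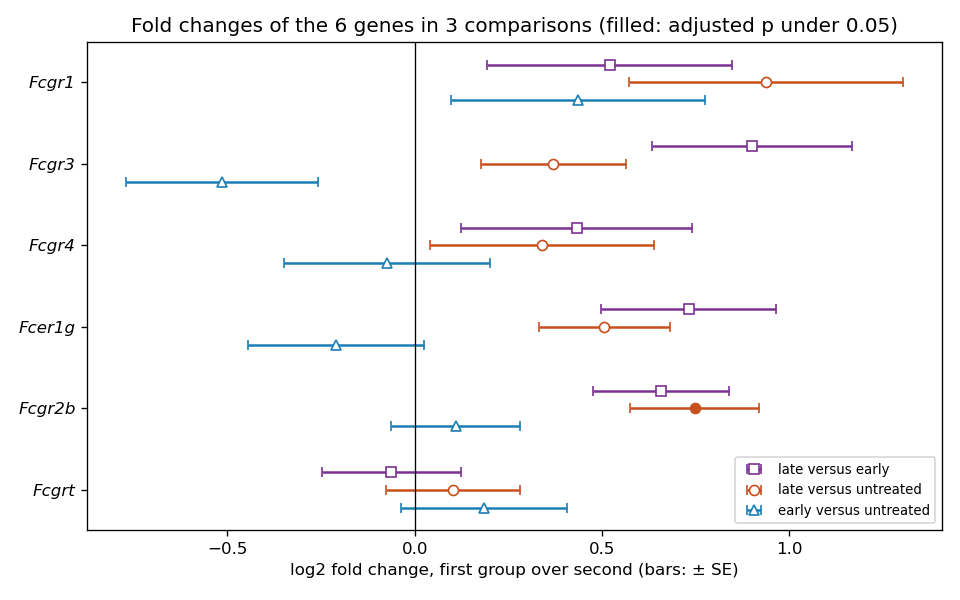
Log2 fold changes of the 6 genes (x axis) in 3 comparisons, with bars of ± SE from edgeR fits on 5 against 5 libraries. Filled symbols mark an adjusted p under 0.05, which only Fcgr2b between late and untreated mice reached, at 0.75. The fold changes of Fcgr3 run from -0.51 between early and untreated to 0.90 between late and early mice.

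Transcripts of the activating receptors were set against those of the inhibitory one as log2 ratios within a library. To these the scaling of the library adds almost nothing. They are RNA ratios of whole blood, in which the mix of cells and the balance within a cell cannot be told apart. Across libraries Fcgr3 followed neutrophil markers (Pearson r of 0.96) and Fcgr2b classical monocyte markers (0.93), as given below. The ratio of Fcgr3 to Fcgr2b was 1.35 ± 0.28 on the log2 scale (SD, n = 5) in untreated, 0.67 ± 0.61 in early and 0.98 ± 0.33 in late mice. In linear terms it ran from 2.08 to 3.43 in the untreated libraries, from 0.972 to 3.10 in the early and from 1.57 to 2.49 in the late ones. The groups overlapped, the early group being the most scattered. Of 12 exact permutation tests, 4 ratios in 3 comparisons, none passed after adjustment. The early and untreated groups differed by -0.69 in the log2 ratio of Fcgr3 to Fcgr2b (p = 0.0556 by an exact permutation test, two-sided, and 0.214 after adjustment).

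The ratio of Fcgr4 to Fcgr3 gave the smallest p-values of this family. Its log2 value was -1.93 ± 0.34 (SD, n = 5) in untreated, -1.42 ± 0.22 in early and -1.98 ± 0.36 in late mice. The early and untreated means differed by 0.50 and the late and early means by -0.55, which was not beyond the adjusted threshold (two-sided exact permutation tests, p = 0.0317 each, adjusted p = 0.190 each). The early group overlapped with the others through untreated 4 and late 1. For Fcgr1 over Fcgr2b the mean log2 ratios were -2.22, -1.88 and -2.07 in untreated, early and late mice, and the differences had exact permutation p-values of 0.262 to 0.714. For Fcgr4 over Fcgr2b they were -0.57, -0.76 and -1.0, and the largest difference, -0.43 between late and untreated mice, had p = 0.0714 (exact permutation test, adjusted p = 0.214). The smallest p that 5 against 5 libraries allow is 0.00794.

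**Figure D3:**
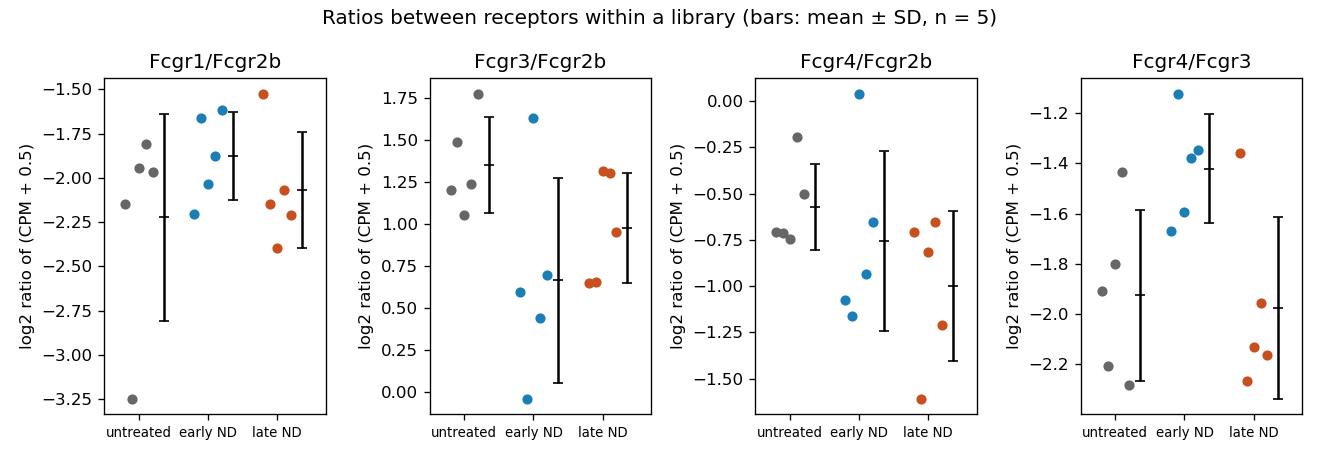
Log2 ratios between receptor genes within each library, of CPM with 0.5 added, in untreated, early ND and late ND mice. Points are libraries and bars the mean ± SD of 5. The ratio of Fcgr4 to Fcgr3 averages -1.42 in early mice and -1.93 and -1.98 in untreated and late mice, with overlap at untreated 4 and late 1.

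The 6 genes differed in how closely they followed the markers of the 2 main phagocyte types of blood across libraries. Over the 15 libraries, log2 CPM of Fcgr3 correlated with the log2 sum of 10 neutrophil markers with a Pearson r of 0.96 and a Spearman rho of 0.93 (0.92 without the 2 libraries farthest from the median of the markers). Fcer1g did so with an r of 0.89 and a rho of 0.80 (0.81 without 2). Both also went with the classical monocyte markers, Fcer1g with an r of 0.68 and a rho of 0.70, and Fcgr3 with 0.58 and 0.49. Fcgr2b instead followed the sum of 6 classical monocyte markers, with an r of 0.93 and a rho of 0.82 (0.89 without 2), and had an r of 0.40 with the neutrophil markers. Fcgr1 had an r of 0.82 and a rho of 0.78 with the monocyte markers (0.72 without 2) and an r of 0.067 with the neutrophil markers. Fcgr4 lay between the types, with an r of 0.69 for neutrophils and 0.65 for classical monocytes. Fcgrt went with neither and had its highest r, 0.62, with B cell markers, while Fcgr2b, although a B cell gene too, had an r of -0.41 with them.

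These correlations are descriptions of 15 libraries that share their depth, scaling and composition, and were not tested. Each marker sum weighs its most abundant genes most. In untreated mice S100a8 and S100a9 of the neutrophil list had means of 2304 and 3574 CPM. Camp, Ltf, Ngp and Ly6g of that list had 4.39 to 37.7 CPM, so the neutrophil sum says little about these 4. As deviations from the group means, Fcgr3 had an r of 0.95 with neutrophil markers, Fcer1g 0.96, Fcgr2b 0.84 with monocyte markers and Fcgr1 0.79, so the pattern was also present among mice of the same group. Without the 3 libraries poor in 18S RNA the 4 values were 0.97, 0.92, 0.94 and 0.83 over 12 libraries. Between members, Fcgr3 and Fcer1g had an r of 0.93, Fcgr1 and Fcgr2b 0.81, and Fcgr1 and Fcgr3 0.24.

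The sums of these markers are given here by group, beside the genes that followed them. The classical monocyte sum was 930 to 1485 CPM in late libraries (median 1152), 568 to 1262 in early (median 654) and 555 to 978 in untreated ones (median 658). Of its 6 genes, 1 was called higher between late and early mice (Csf1r, 0.75, adjusted p = 0.0425) and 2 between late and untreated mice (Ccr2, 1.11, adjusted p = 0.0242, and Csf1r, 0.73, adjusted p = 0.0322). The neutrophil sum was 5459 to 14301 CPM in late (median 9651), 2289 to 7089 in early (median 3598) and 4364 to 11165 in untreated libraries (median 8862), and 0 of its 10 genes passed in any comparison (7 were higher at an unadjusted p under 0.05 between late and early mice, and 5 lower between early and untreated mice, by edgeR). DESeq2 called 6 of the 10 higher between late and early mice and 0 in the other comparisons. Between late and early mice 8 of the 10 had positive log2 fold changes and 2, Ltf and Camp, negative ones. Between late and untreated mice 5 were positive and 5 negative, and between early and untreated mice all 10 were negative. The tissue macrophage sum was 33.9 to 61.1 CPM in late, 16.7 to 38.6 in early and 20.5 to 38.2 in untreated libraries, and the B cell sum 429 to 1256, 774 to 1346 and 687 to 1017 CPM. The dendritic cell sum was 16.7 to 22.5 CPM in late, 9.74 to 20.5 in early and 9.67 to 15.8 in untreated libraries, so late and untreated did not overlap. Of this list Flt3 was called higher between late and untreated mice (1.28, adjusted p = 0.0242), as was Adgre1 of the macrophage list (0.89, adjusted p = 0.0250). Mean Flt3 went from 4.33 CPM in untreated to 10.1 in late mice. Of the 4 dendritic cell genes tested there, 3 had positive log2 fold changes and 1, Xcr1, a negative one (-0.42). Between late and early mice 2 were positive and 2 negative, and Flt3 was called higher there too (0.94, adjusted p = 0.0413, edgeR). Mean Adgre1 went from 23.2 CPM in untreated to 43.4 in late mice, while the other macrophage genes had late means of at most 3.68 CPM. The T cell sum was 146 to 177 CPM in late, 128 to 243 in early and 173 to 271 in untreated libraries, and Cd3g was called lower between late and untreated mice (-0.63, adjusted p = 0.0274). Of 7 erythroid genes 4 were called lower between late and early and 3 between late and untreated mice, and all 7 in both by DESeq2. The platelet sum was 1304 to 1823 CPM in late, 1560 to 3155 in early and 1553 to 2454 in untreated libraries. The part of these cell types in the levels of the receptors was not tested.

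**Figure D4:**
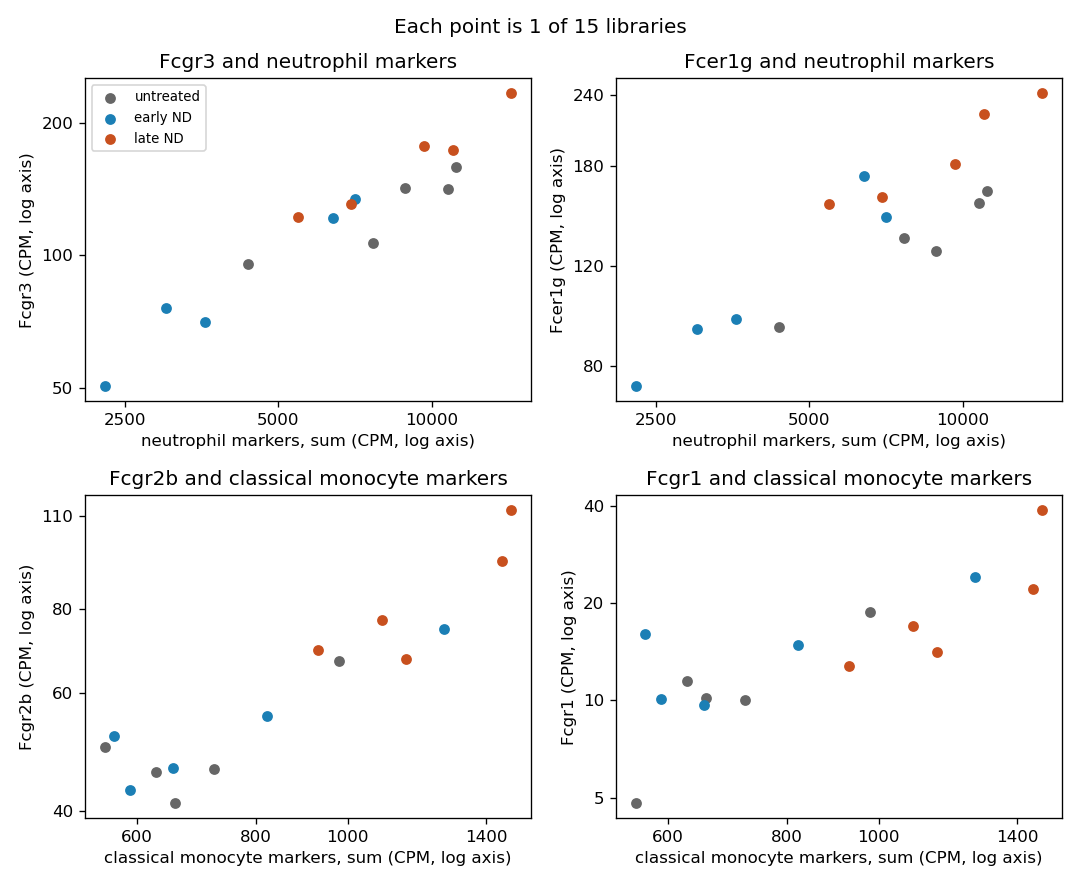
Each point is 1 of 15 libraries, with the summed CPM of neutrophil markers (upper panels) or classical monocyte markers (lower panels) on the x axis and the CPM of a receptor gene on the y axis, all on log axes. Fcgr3 and Fcer1g climb with the neutrophil sum (r of 0.96 and 0.89) and Fcgr2b and Fcgr1 with the monocyte sum (r of 0.93 and 0.82).

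**Figure D5:**
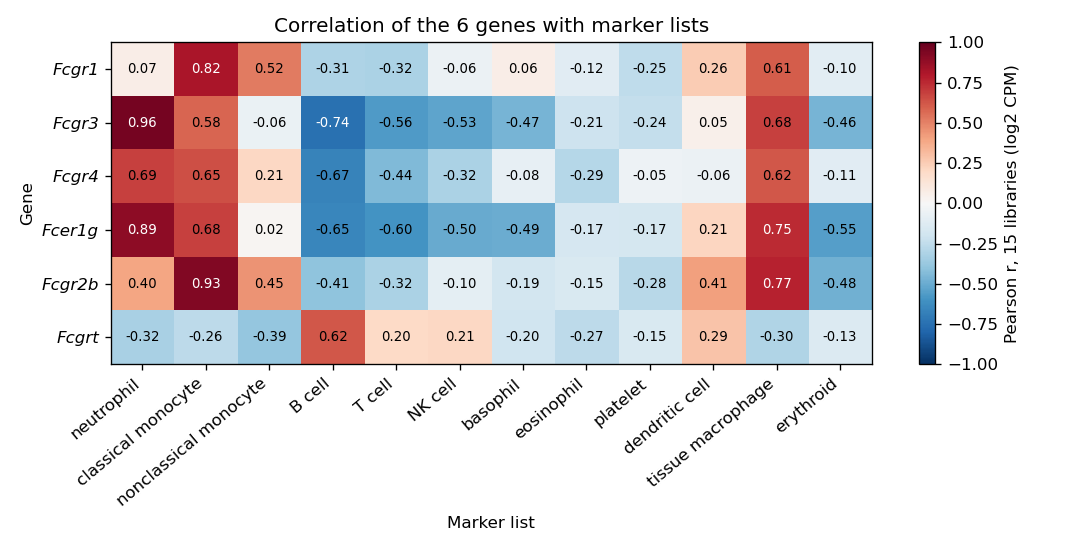
Pearson r over 15 libraries between log2 CPM of each of the 6 genes (rows) and the log2 summed CPM of 12 marker lists (columns), from blue at -1 through white at 0 to red at 1. The highest value of Fcgr3 and Fcer1g is with neutrophils, that of Fcgr1 and Fcgr2b with classical monocytes and that of Fcgrt with B cells.

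Among 7289 genes with a mean of at least 10 CPM, the patterns most like that of Fcgr3 over 15 libraries were those of Sqor, Il13ra1 and Il36g (Pearson r of 0.98 each). Those most like Fcer1g were Ncf4, a subunit of the phagocyte NADPH oxidase (0.98), Gm16282 (0.96) and Padi4, a histone-modifying enzyme of neutrophils (0.95). Fcgr2b was most like Ms4a6c (0.92), which is in the monocyte list, Clec4a1 (0.91) and Tifab (0.90). Tifab had an r of 0.74 in deviations from the group means, so part of that likeness lay between the groups. Fcgr1 was most like Ifi207 (0.93), an interferon-inducible gene, Usp12 (0.91) and Ms4a6c (0.88). Fcgr4 was most like Oas3 (0.93) and Trim30a (0.91), both interferon-induced, and 1600014C10Rik (0.91). Fcgrt was most like Vars1 (0.90), Msto1 (0.89) and Tmco4 (0.88).

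The rest of the pathway was read from 7 lists of 63 genes, of which 62 were found and 58 tested between late and early mice. There 5 genes were called higher and 1 lower, where 4.98% of all genes were called and 2.5% called higher, with a median log2 fold change of 0.35 against 0.014 over all genes. Among 15 adaptors and effectors Card9, which links ITAM receptors to NF-kappaB, rose by 1.00 on the log2 scale (SE 0.23, adjusted p = 0.0331), from 39.8 ± 14.7 to 78.8 ± 16.2 CPM (SD, n = 5), and Pik3r5, a regulatory subunit of phosphoinositide 3-kinase gamma, rose by 0.58 (adjusted p = 0.0488). Among 9 genes of the inhibitory arm Pirb, an ITIM receptor for MHC class I, rose by 0.89 (SE 0.24, adjusted p = 0.0498). Of 8 transcription factors and interferon-gamma receptor genes both receptor subunits rose, Ifngr1 by 0.57 (SE 0.14, adjusted p = 0.0392) and Ifngr2 by 0.53 (SE 0.13, adjusted p = 0.0423). Of 7 tested receptors that also use the gamma chain, the platelet collagen receptor Gp6 fell by 0.69 on the log2 scale (SE 0.17, adjusted p = 0.0420). The other 6 did not pass, and 5 of them had positive log2 fold changes: Tarm1 1.33 (adjusted p = 0.0537), Clec4d 1.04 (0.0817), Clec4e 0.95 (0.120), Clec4n 0.69 (0.291) and Pira2 0.69 (0.106), while Ncr1 had -0.51 (0.173). DESeq2 called 2 genes of this list higher and 1 lower. These 6 were named after their values were seen.

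In 2 of the lists where 0 genes passed between late and early mice, the smallest p belonged to the adaptor chain Tyrobp among 4 partner chains (0.84, adjusted p = 0.0665) and to the beta chain of the IgE receptor, Ms4a2, among 8 other Fc receptors (-0.92, adjusted p = 0.269). All 8 of those other Fc receptors had negative fold changes, and 0 of them had an unadjusted p under 0.05 by edgeR or passed with DESeq2, which called 2 kinases higher and 1 lower and 1 partner chain in each direction. None of the 6 pathway calls was made when late 2 and late 3, which are poor in 18S RNA, were left out, or with the hemoglobin share as a covariate. Of all genes, only 4 passed in the first of these fits and 0 in the second, so this loss is not particular to the pathway. Leaving out 1 library at a time gave 0 to 21 pathway genes called higher and 0 to 4 lower, with the upper ends reached without early 3, and 0 genes were called higher on leaving out late 1, 3, 4 or 5 or early 1, 2 or 4.

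Between late and untreated mice 1 of 58 tested pathway genes was called, the kinase gene Prkcd, which rose by 0.48 (SE 0.12, adjusted p = 0.0481), from 161 ± 16.4 to 225 ± 23.5 CPM (SD, n = 5). A share of 3% of all genes was called in that comparison, and 0.989% called higher. The 1 in 58 lies between these shares, was not tested against them and is not read as a result about the pathway. The median over the pathway was 0.22 against 0.0023 over all genes. In 5 other lists the smallest p belonged to the ubiquitin ligase gene Cbl (0.47, adjusted p = 0.0697), Ifngr1 (0.41, adjusted p = 0.117), the zeta chain gene Cd247 (-0.40, adjusted p = 0.118), Gp6 (-0.48, adjusted p = 0.136) and Ms4a2 (-0.80, adjusted p = 0.314). DESeq2 called 4 pathway genes higher and 1 lower. On leaving out any 1 library except untreated 5, 0 pathway genes passed by edgeR. The Prkcd call was also lost without the libraries poor in 18S RNA and in the fit with a hemoglobin term. Between early and untreated mice 0 of 57 tested pathway genes passed by edgeR or DESeq2, with 1 higher and 3 lower at an unadjusted p under 0.05, and the median was -0.057. The gene of smallest p in each list there was the gamma chain partner Tarm1 (-1.06), the transcription factor gene Irf8 (0.40), the GTPase gene Rac2 (-0.33), the adaptor gene Dok2 (-0.29), the kinase gene Fyn (0.28), Tyrobp (-0.35) and the low-affinity IgE receptor gene Fcer2a (0.27), with adjusted p-values of 0.938 to 0.940.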

How the data were processed

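RNA from whole blood was read as pairs of 150 bases in 15 libraries. The authors aligned the reads with STAR 2.7.9 to GRCm39, sorted them with SAMtools 1.7 and counted read pairs per gene with HTSeq 0.13.5, and the deposited values are raw counts per gene. Annotation release and strand setting are not given in the sources used here, and mm10 is named beside GRCm39 in the submitters' processing notes. Of the total tallied by HTSeq, 75.6% to 88.1% stood in its counters for what was not assigned to a gene. These counters were left out, and their share need not equal a share of read pairs. Gene symbols were taken from GENCODE vM39 (54749 of 55416 identifiers matched).

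Groups and replicate numbers came from the labels. Each pair of groups was fitted with edgeR 4.0.16 (R 4.3.3; filterByExpr, TMM, quasi-likelihood test, Benjamini-Hochberg threshold 0.05), a procedure tested on simulated data. DESeq2 1.42.0, other scalings and filters, a replicate block, a hemoglobin covariate and leaving out libraries were alternatives. Exact permutation tests, two-sided, served for ratios of CPM + 0.5. Likeness used log2 CPM with a prior count of 2. The 6 genes, the pathway and marker lists and the tests were chosen with earlier results of these data known, and the count of pathway genes under each alternative was added after seeing the data. Named were all members, for each pathway list the genes past the threshold (at most 4) or else that of smallest p, and the 3 most alike genes per member. Some genes that this rule names are not reported here. Marker genes named beside a list's count were chosen after their values were seen. Libraries were poor in 18S RNA below 5000 CPM. Of 105 pairs of libraries 0 were identical, and the labels do not say more on the origin of replicates than 1 animal each. Depth sets precision for the low genes Fcgr1 and Fcgrt, with as few as 25 and 27 counts.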

Additional observations from a re-analysis of the deposited data

Results flagged for a closer look

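Of 30 groups of 5 values (6 genes and 4 ratios in 3 groups), 2 held a library far from the others, and chance flags about 1 in 20 groups. Fcgr4 stood at 58.5 CPM in untreated 4, against 27.0 to 30.3 CPM in the other 4 untreated libraries. The log2 ratio of Fcgr1 to Fcgr2b was -3.25 in untreated 2, against -2.15 to -1.81 in the other 4, and untreated 2 is the untreated library poor in 18S RNA.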

How the results depend on the processing

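Of 360 alternative values for the 18 fold changes of the members, 317 kept their direction and their side of the threshold and 9 changed direction. Of 168 for the 12 ratios, 164 kept both and 4 changed direction. The cause of these changes was not tested. Where it is not named, the fold change is on the log2 scale and the test is edgeR's.

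With DESeq2, 769 genes were higher and 670 lower between late and early mice and 274 and 534 between late and untreated mice, and the late against early changes of Fcgr2b (0.63), Fcgr3 (0.88) and Fcer1g (0.71) passed. Pathway calls were then 20 higher and 3 lower, and 4 and 1. With DESeq2 size factors in edgeR, 201 genes were higher between late and early mice. Of pathway genes, 1 was higher there and 0 were higher between late and untreated mice. Leaving hemoglobin and 18S genes out of the scaling left 2 and 0 pathway genes higher.

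Scaling by library totals moved the median of all genes to 0.86 between late and early mice and to 0.91 between late and untreated mice. There, 8923 genes were higher and 137 lower, and 7484 and 90, with 46 pathway genes higher and 0 lower, and 47 higher; between early and untreated mice it was 1 and 2 genes. All 6 members passed between late and early mice, at 1.39 for Fcgr1, 1.53 for Fcgr2b, 1.72 for Fcgr3, 1.25 for Fcgr4, 1.57 for Fcer1g and 0.75 for Fcgrt. Between late and untreated mice, Fcgr1 (1.87), Fcgr3 (1.18), Fcgr4 (1.17), Fcer1g (1.35) and Fcgrt (1.05) passed too. Relative to the shift of the median, Fcgrt was lower between late and early mice.

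Without a filter on low counts, 886 genes and 20 pathway genes were higher between late and early mice, and Fcgr2b (0.74), Fcgr3 (0.98) and Fcer1g (0.81) passed while Fcgrt was at 0.017. With at least 10 counts in every library, Fcgr2b passed there (0.64), with 8 pathway genes higher and 2 lower, and 2 higher between late and untreated mice. In 1 fit of all 15 libraries, Fcgr2b (0.63) and Fcgr3 (0.89) passed between late and early mice, with 12 pathway genes higher and 2 lower, and 2 higher between late and untreated mice.

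With the hemoglobin share as a covariate, 0 genes and 0 pathway genes passed in either comparison with late mice (between late and early mice 578 higher and 494 lower at an unadjusted p under 0.05, and between late and untreated mice 417 and 292, by edgeR; DESeq2 was not run with it), and Fcgr2b was at 0.93 between late and untreated mice. Without the libraries poor in 18S RNA, 4 genes were higher and 0 lower between late and early mice and 0 between late and untreated mice (956 higher and 961 lower at an unadjusted p under 0.05), with 0 pathway genes in each. Fcgr2b was then at 0.85 and Fcgrt at -0.032 between late and untreated mice, and the ratio of Fcgr4 to Fcgr3 at 0.029.

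The replicate numbers were not taken to pair the samples, since not every same-numbered pair correlated above 0.1: deviations did so in 1 of 5 pairs for late and early, 4 of 5 for late and untreated and 0 of 5 for early and untreated mice, and 1, 3 and 0 libraries correlated best with their own number. With a replicate block, 230 genes were higher and 377 lower between late and untreated mice, 8 pathway genes were higher between late and early mice, and no member changed its call. Same-numbered late and untreated deviations had a mean r of 0.24, and there the block gave Fcgr2b an adjusted p of 0.00992 and Fcgr1 of 0.0912 (edgeR).

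Leaving out 1 library at a time gave 36 to 1057 genes higher and 106 to 553 lower between late and early mice, and 0 to 184 and 0 to 409 between late and untreated mice. Pathway calls ran from 0 to 21 higher and 0 to 4 lower, and from 0 to 2 and 0 to 1. Between late and early mice, Fcgr2b ran from 0.51 to 0.81 (past the threshold without early 5), Fcgr3 from 0.74 to 1.10 (without early 3), Fcer1g from 0.60 to 0.93 (without early 3 or early 5) and Fcgrt from -0.17 to 0.088, positive without early 1 (0.088) or early 2 (0.0050). Between late and untreated mice Fcgr2b ran from 0.62 to 0.88, the ratio of Fcgr1 to Fcgr2b from -0.10 (without untreated 2) to 0.26 and that of Fcgr4 to Fcgr3 from -0.20 to 0.072, positive without untreated 4 (0.072) or late 2 (0.023). Between early and untreated mice Fcgr2b ran from -0.036 (without early 5) to 0.24 and Fcgr4 from -0.24 to 0.20, positive without untreated 4 (0.20), early 1 (0.047) or early 2 (0.031).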
